A study of Mus musculus with 6 samples.

Results

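The genes described here are 5 matrix metalloproteinases, Mmp8, Mmp9, Mmp12, Mmp13 and Mmp14, and 3 tissue inhibitors of metalloproteinases, Timp1, Timp2 and Timp3. They were taken by symbol from the 32285 genes counted in each of 6 mouse colon libraries, and all 8 were found in every library, beside 18 other genes of the same families. Matrix metalloproteinases are zinc-dependent proteases that are made as inactive proenzymes and, once their propeptide is removed, cut collagens, gelatin, elastin and many signalling proteins. The tissue inhibitors occupy the active site of the enzymes and block them, so the cutting of matrix depends on both families. In an inflamed gut wall, neutrophils are known to store Mmp8 and Mmp9 in their granules, macrophages to secrete Mmp12, and fibroblasts to make Mmp14 and the inhibitors.

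The study sorted cells bearing the leukocyte antigen CD45 from the colon of wild-type mice and read their messenger RNA with a droplet method that tags the 5' end of transcripts, so each unique molecular identifier (UMI) stands for 1 captured molecule. SPF day 0 was the untreated control, and SPF day 2 and SPF day 7 had received dextran sodium sulfate (DSS), a polymer that injures the colon epithelium, for 2 or 7 days. In the pGF (pseudo germ-free) arm, day 0 had received 4 weeks of antibiotics without DSS, and day 2 and day 7 had then received antibiotics together with DSS for 2 or 7 days. Each of the 6 groups was 1 library, and the number of animals behind a library is not given in the sources used here. There is therefore no replicate check: every difference below compares libraries, not conditions, all intervals are exact 95% intervals that cover counting error only, and no p-value is given. Epithelium had been stripped with EDTA before an enzyme digestion and the CD45 sort, so the epithelial and stromal cells described below are cells that these steps should have removed.

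The libraries held 1792 to 11629 cell barcodes and 23335071 to 52772901 UMIs, and 29130 of 40523 barcodes were kept, with medians of 2388 to 20744 UMIs per kept cell. In SPF day 2, 61.1% of barcodes were rich in mitochondrial UMIs and were set aside, against 6.41% to 28.1% in the other libraries. Pairs of libraries shared 5 to 131 barcodes, at most 1.67% of the smaller library. Cell classes were rebuilt here from marker genes over 34 clusters. Neutrophils numbered 1, 54 and 3774 cells in SPF at day 0, 2 and 7 and 7, 46 and 66 in pGF. Monocytes or macrophages numbered 321, 355 and 1774 in SPF and 167, 159 and 224 in pGF. Fibroblasts or smooth muscle cells numbered 21, 405 and 0 in SPF and 35, 0 and 25 in pGF, and epithelial cells 123, 755 and 23 against 112, 1122 and 70. A level is given where a class had at least 20 cells, and a comparison where it had at least 40 in both libraries.

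The cells of 1 class did not come from the same clusters in every library. Of the SPF day 7 neutrophils, 1518 stood in cluster 5, which carried the granule gene Ngp, and 347 in cluster 17, while cluster 17 held 35, 41 and 60 of the neutrophils of SPF day 2, pGF day 2 and pGF day 7. Clusters 8 and 13, with 1103 and 768 SPF day 7 cells, had a median depth under 1/3 of that of their libraries. Of the SPF day 7 monocytes or macrophages, 1307 stood in cluster 6, led by Saa3, Cxcl2 and Il1b, and 406 in cluster 7, led by Apoe and the complement genes C1qa, C1qb and C1qc. In the other 5 libraries cluster 7 was the larger, with 124 to 263 cells against 10 to 91 in cluster 6. The Mmp and Timp genes took no part in the clustering. Against the marker lists, all 16 neutrophil markers reached 50 counts per 1000000 UMIs of the class (CPM) in SPF day 7 neutrophils, and 12 of 16 did in SPF day 2, where 3 were at 0 and the plasma cell list summed to 22556 CPM. In monocytes or macrophages of SPF day 7, monocyte markers summed to 15581 CPM and macrophage markers to 8063 CPM. In the other 5 libraries macrophage markers led, at 10691 to 17350 CPM against 3172 to 4958 CPM. A difference with SPF day 7 over this class thus also compares different mixes of cells. Below, macrophages is short for the whole class.

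Mmp13, Mmp12 and Mmp8 lie on chromosome 9 of the build GRCm38.p6 within 296 kb, and with 6 other genes of the family they span 427.1 kb. Among the kept cells of SPF day 7, Mmp8 was read mainly in neutrophils and Mmp12 and Mmp13 mainly in monocytes or macrophages. Mmp13 spans 7272514 to 7283333, Mmp12 spans 7344397 to 7360461 and Mmp8 spans 7558429 to 7568486. The RefSeq bases just before a start site of each are shown with any TGANTCA motif, the letters of an AP-1 site, in capitals. The windows shown also differ in the other motif searched, AGGAAG, given below. The upstream Mmp12 window, which lacked TGANTCA, is not shown. The Mmp13 window is chr9:7272264-7272513, the Mmp12 window is chr9:7347124-7347373, before the more downstream of its annotated starts, and the Mmp8 window is chr9:7558179-7558428, all on the plus strand.
Mmp13: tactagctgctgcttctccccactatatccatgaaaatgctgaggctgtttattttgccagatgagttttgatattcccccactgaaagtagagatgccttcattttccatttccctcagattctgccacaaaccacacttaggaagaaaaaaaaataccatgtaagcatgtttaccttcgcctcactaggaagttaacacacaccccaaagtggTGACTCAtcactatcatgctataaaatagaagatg
Mmp12: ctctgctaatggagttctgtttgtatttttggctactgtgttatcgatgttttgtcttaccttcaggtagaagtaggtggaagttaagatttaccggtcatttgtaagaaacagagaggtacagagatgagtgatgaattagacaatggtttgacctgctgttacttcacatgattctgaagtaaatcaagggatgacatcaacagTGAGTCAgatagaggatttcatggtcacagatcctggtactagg
Mmp8: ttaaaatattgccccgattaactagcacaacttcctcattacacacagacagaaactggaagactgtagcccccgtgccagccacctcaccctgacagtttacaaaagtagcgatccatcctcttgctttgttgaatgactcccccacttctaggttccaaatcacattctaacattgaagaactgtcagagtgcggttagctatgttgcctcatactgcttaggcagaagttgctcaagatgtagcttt
The motif stood 35 bases before the Mmp13 start and 44 bases before the downstream Mmp12 start. It was not in the windows of Mmp8, the upstream Mmp12 start, Mmp14, Timp1, Timp2 or Timp3. Both strands were searched, and 6.75% of 32851 windows of 250 bases held it. AGGAAG, the letters of an ETS site, was in 29.5% of those windows and in those of Mmp8, the upstream Mmp12 start, Mmp13, Mmp14, Timp1 and Timp3. These matches describe letters and say nothing of binding. Mmp9, on chromosome 2, is named only.

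In the GENCODE annotation, Timp1 and Timp3 overlap Syn1 and Syn3 on the opposite strand, and Timp2 overlaps Cep295nl on its own strand. Whether the counting used strand is not given in the sources used here. The overlapping genes had few UMIs in kept cells: 38 for Syn1 against 5515 for Timp1, 143 for Syn3 against 4272 for Timp3, and 48 for Cep295nl against 7840 for Timp2.

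The 8 genes divided the cell classes among them. Shares here are of a gene's UMIs in kept cells. In SPF day 7, Mmp8 and Mmp9 were read mainly in neutrophils, which held 93.1% and 98.4% of their UMIs. Neutrophils held 56.6% to 61.5% of the Mmp9 UMIs in SPF day 2, pGF day 2 and pGF day 7, but at day 0, when few were kept, monocytes or macrophages held 87.2% in SPF and 90.8% in pGF. Of only 20 Mmp8 UMIs in SPF day 2, monocytes or macrophages held 15 and neutrophils 4. Mmp13 was read in monocytes or macrophages, which held 90.1% to 99.8% of its UMIs in the kept cells of all 6 libraries. In SPF day 7, however, kept cells held only 876 of the 1879 Mmp13 UMIs of all barcodes. Timp3 was stromal or epithelial: fibroblasts or smooth muscle cells held 91.1% of its UMIs in SPF day 2, and epithelial cells 98.6% in pGF day 2, where no stromal cell was kept. Mmp14 and Timp2 were spread over several classes, and the class with most of their UMIs changed with the cells each library held. Monocytes or macrophages held 61.8% of the Mmp14 UMIs in SPF day 0 and 93.8% in SPF day 7, stromal cells 65.5% in SPF day 2, and epithelial cells 83.9% in pGF day 2.

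**Figure D1:**
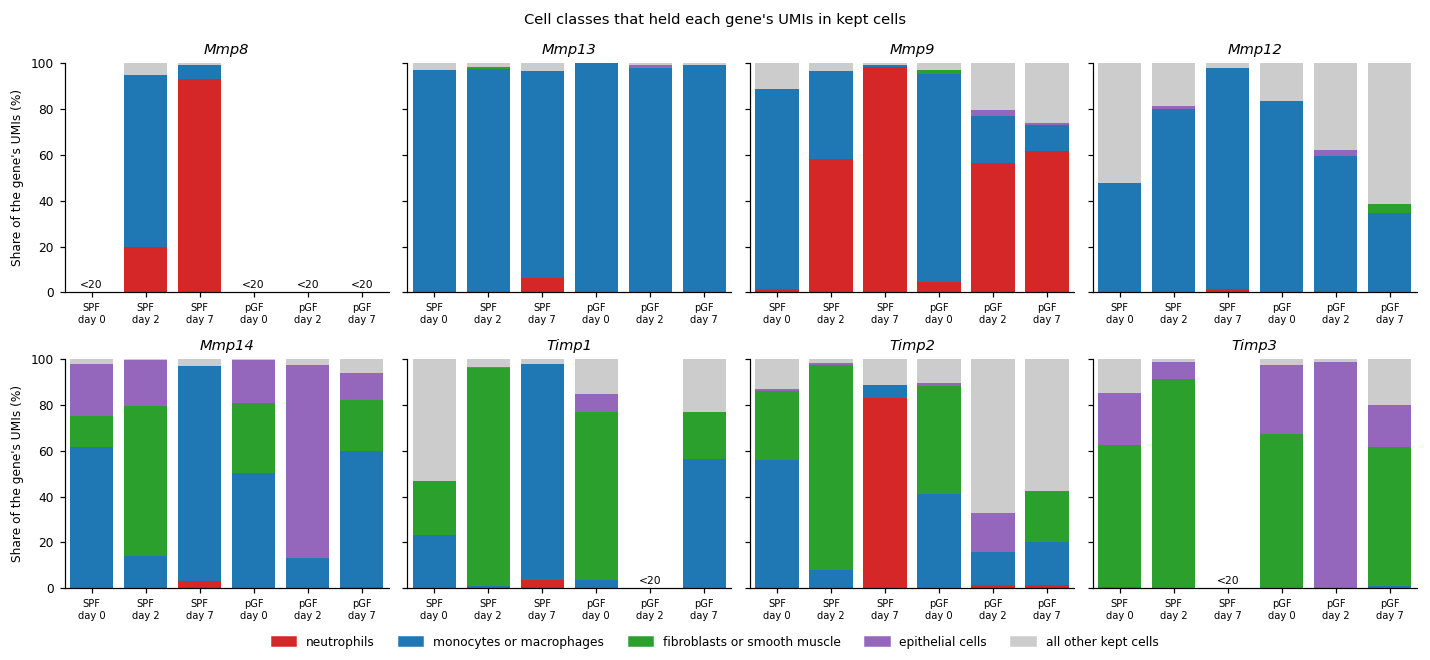
Stacked bars give the share (%) of each gene's UMIs in kept cells held by 4 cell classes and by all other kept cells, for each of the 6 libraries. Libraries with fewer than 20 UMIs of a gene are marked <20; neutrophils fill most of the Mmp8 and Mmp9 bars of SPF day 7, while Mmp13 is held by monocytes or macrophages in all 6 libraries.

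**Figure D2:**
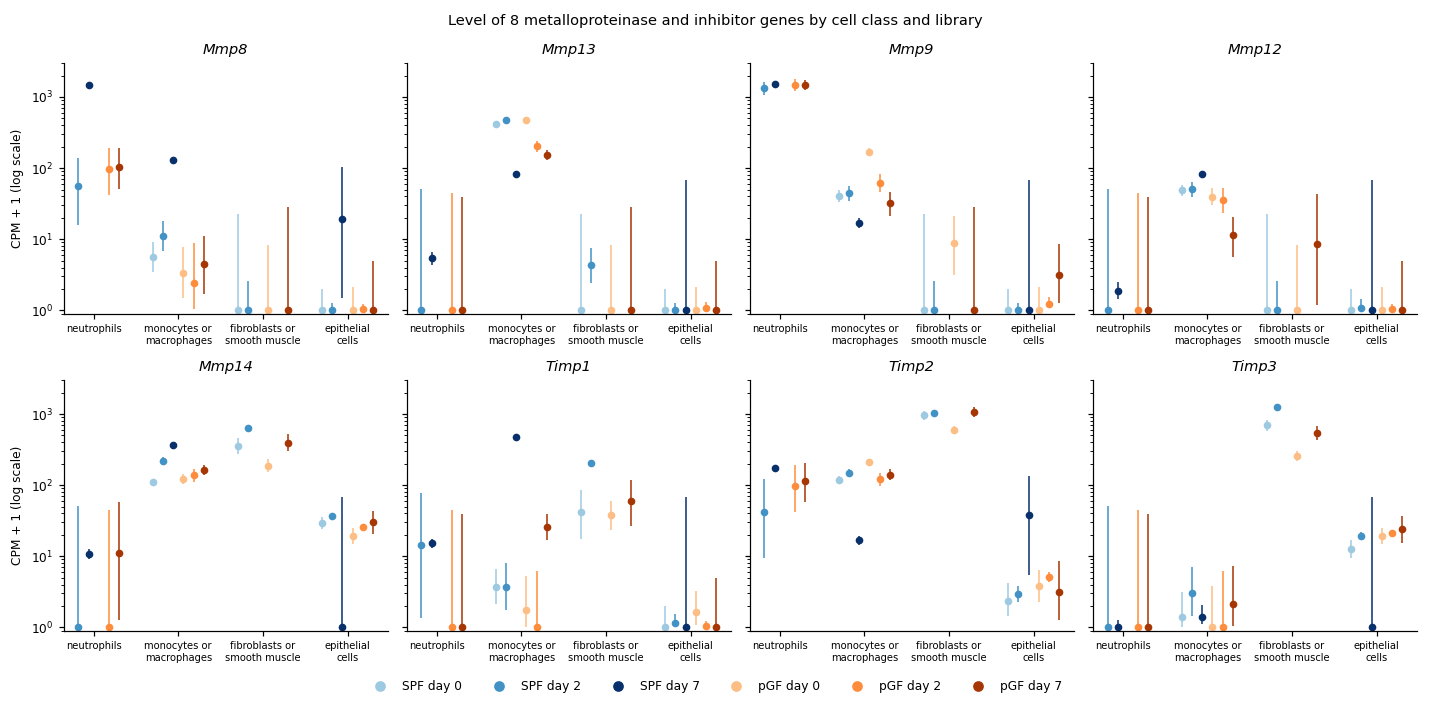
Points give the level of each gene as CPM + 1 on a log axis, by cell class (x axis) and library (colour), for classes of at least 20 cells, and bars are exact 95% Poisson intervals for 1 library each. A point at 1 is a class with 0 UMIs; Mmp8 in neutrophils and Timp1 in monocytes or macrophages are high in SPF day 7, and Mmp9 in neutrophils lies close together in 4 libraries.

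Mmp8, the neutrophil collagenase, which cuts fibrillar collagens, was abundant in the neutrophils of SPF day 7 and scarce in those of the other libraries. Its level there was 1484 CPM (1463 to 1505; 19316 UMIs), against 54.4 CPM (14.8 to 139; 4 UMIs) in SPF day 2, 95.4 CPM (41.2 to 188; 8 UMIs) in pGF day 2 and 102.6 CPM (49.2 to 189; 10 UMIs) in pGF day 7. The 3 lower intervals overlapped one another and lay far from that of SPF day 7. Mmp8 was 14.5-fold lower in pGF day 7 than in SPF day 7 (7.87 to 30.2), and 27.3-fold higher in SPF day 7 than in SPF day 2 (10.7 to 100.2). With every cell thinned to 1000 UMIs, Mmp8 was detected in 60.7% of 2304 neutrophils in SPF day 7 and in 6 of 49 (12.2%) in pGF day 7, where 1470 and 17 shallower cells were left out. Unthinned, the shares were 58.1% and 12.1%. The thinned share in SPF day 7 T or NK cells, which should lack the gene, was 0.751%, with median depths of 3138 UMIs there and 1380 in the neutrophils. In droplets of SPF day 7 led by haemoglobin genes, a class with a median of 756 UMIs, it was 24.7% of 73. The source of those UMIs was not tested.

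The size of the Mmp8 difference depended on which neutrophils were compared. In cluster 5 of SPF day 7, Mmp8 stood at 1718 CPM beside 5760 CPM of Ngp, a secondary granule protein made while neutrophils mature. In cluster 17, the only neutrophil cluster with at least 20 cells in 4 libraries, Mmp8 was 281.6 CPM (244.7 to 322.5) in SPF day 7, against 82.8 CPM in SPF day 2, 101.1 CPM in pGF day 2 and 108.0 CPM in pGF day 7. On the log2 scale of (CPM + 10), the pGF against SPF difference at day 7 was -3.73 over the class and -1.31 within cluster 17. That between SPF day 7 and SPF day 2 was 4.54 over the class and 1.65 within the cluster. Ngp had 84 UMIs in the SPF day 7 cells of cluster 17 and 0 in those of the other 3 libraries.

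Mmp9, the gelatinase of neutrophil granules, stood at a like level over the whole neutrophil class in all 4 libraries that had enough of them, though not within its clusters. It was 1332 CPM (1082 to 1624) in SPF day 2, 1503 CPM (1482 to 1524) in SPF day 7, 1478 CPM (1229 to 1762) in pGF day 2 and 1477 CPM (1246 to 1739) in pGF day 7. These 4 intervals overlapped. The pGF to SPF ratio was 1.11 at day 2 (0.844 to 1.46) and 0.983 at day 7 (0.829 to 1.16). Thinned detection was 69.4%, 64.5%, 58.5% and 67.4% in the same order. It was 0.478% in T or NK cells of SPF day 7 and 15.1% in its haemoglobin-led droplets. The libraries that lay over 2-fold apart in Mmp8 thus lay within 2-fold in Mmp9. This rests on the scaling: S100a8 and S100a9 took 25.3% of all UMIs in SPF day 7 neutrophils, against 3.72% to 8.56% in the other 3 libraries. Under TMM scaling, which gives such genes less weight, the Mmp9 difference at day 7 moved from -0.02 to -0.88 and that of SPF day 7 against SPF day 2 from 0.17 to 1.13. Within cluster 17 Mmp9 was 1002 CPM (931.7 to 1077) in SPF day 7 and 1523 to 1760 CPM in the other 3 libraries, whose intervals all lay above it. In the other SPF day 7 clusters it was 1685 CPM (cluster 5), 912.1 CPM (cluster 13), 430.2 CPM (cluster 32) and 360.1 CPM (cluster 8).

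**Figure D3:**
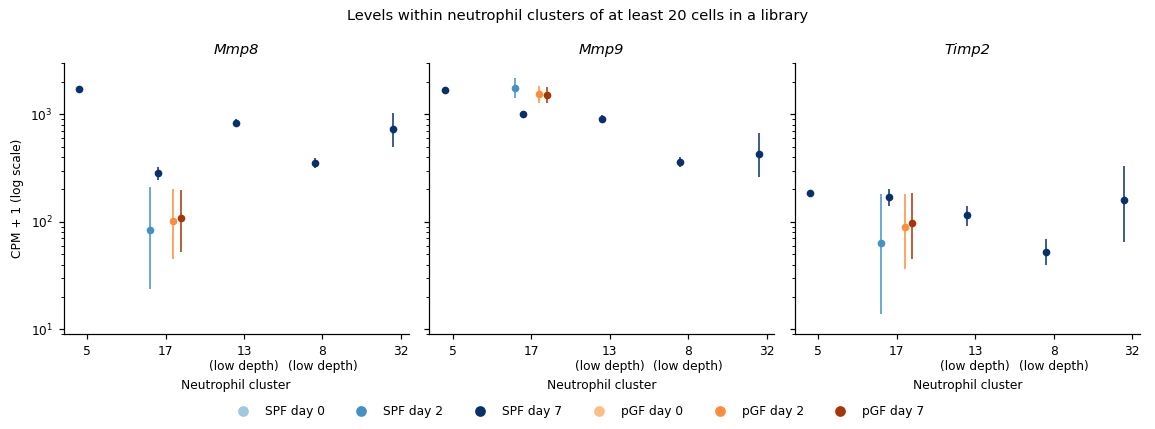
Levels (CPM + 1, log axis) of Mmp8, Mmp9 and Timp2 in each neutrophil cluster with at least 20 cells in a library, coloured by library, with exact 95% Poisson intervals. Mmp8 in cluster 5 (1718 CPM) is above its levels in cluster 17, while Mmp9 is above 1000 CPM in both and below it in clusters 8, 13 and 32.

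Mmp8 and Mmp9 were often found in the same SPF day 7 neutrophils: 1791 of 2324 cells with a Mmp9 UMI (77.1%) also had one of Mmp8, against 58.1% of all 3774. Cells with either gene were deeper, with medians of 4502 UMIs for Mmp9 and 4876 for Mmp8 against 1380 over the class, and the part of depth in this share was not tested. Likewise 1100 of 1203 cells with a Timp2 UMI had one of Mmp9 (91.4%), at a median of 6285 UMIs. Timp2, an inhibitor that also takes part in the activation of Mmp2, was 170.6 CPM (163.6 to 177.8) in SPF day 7 neutrophils, 40.8 CPM in SPF day 2, 95.4 CPM in pGF day 2 and 112.8 CPM in pGF day 7. The pGF to SPF ratio of Timp2 at day 7 was 0.662 (0.330 to 1.19), and the level of SPF day 2 rested on 3 UMIs. Timp1 had 184 UMIs (14.1 CPM) in SPF day 7 neutrophils and 0 in pGF day 7, where 3 UMIs would already be 30.8 CPM, so a difference was not detectable at this depth. Mmp12, Mmp13 and Mmp14 had 11, 57 and 127 UMIs in the SPF day 7 neutrophils and at most 1 UMI in each other neutrophil sum, and Timp3 had 0 in all 4.

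Saa3, the leading gene of the monocyte or macrophage cluster 6, was also read in SPF day 7 neutrophils, at 698.2 CPM. Per 1000 Saa3 UMIs, Timp1 had 20.3 (17.4 to 23.4) in neutrophils, 25.0 (24.2 to 25.7) in monocytes or macrophages and 32.7 (21.2 to 48.3) in T or NK cells. Mmp14 had 14.0 (11.6 to 16.7), 19.2 (18.6 to 19.9) and 20.1 (11.5 to 32.9) in the same order. For both genes the neutrophil interval lay below that of monocytes or macrophages and overlapped that of T or NK cells, and the source of these UMIs was not tested. Of the neutrophil UMIs, 147 of 184 for Timp1 and 102 of 127 for Mmp14 lay in the low-depth cluster 8, where Timp1 was 159 CPM and Mmp14 110 CPM, while in cluster 5 they were 1.90 and 0.664 CPM.

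A gene was compared between libraries where the higher one had at least 10 CPM and 20 UMIs, and was counted when it lay past 2-fold on the (CPM + 10) scale. A gene with few UMIs in 1 library thus entered only through the library where it was high. In neutrophils at day 7, 0 of 4 compared members were higher in pGF than in SPF, where 18.6% of all compared genes were, and 2 of 4 lay past 2-fold on the lower side, where 15.0% did. These were Mmp8 and Timp1, but the Timp1 value rests on 0 UMIs in pGF, and its ratio could be as high as 2.70. With 10, 0 and 11 UMIs in pGF day 7, Mmp8, Timp1 and Timp2 were compared only through SPF day 7. At day 2 the only member compared was Mmp9, and it stayed within 2-fold, where 11.3% of genes were higher and 9.32% lower. In SPF day 7 against SPF day 2, Mmp8 and Timp2 were higher and none of the 4 was lower, where 15.1% and 24.4% of genes were. Of these 4, only Mmp9 passed the filter in SPF day 2 itself. Mmp9, the only member compared, stayed within 2-fold in pGF day 7 against pGF day 2, where 5.24% of genes were higher and 6.12% lower. The SPF day 7 and pGF day 7 libraries each enter more than 1 of these comparisons, which are therefore not independent.

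In monocytes or macrophages the members went in different directions, and day 7 set the libraries furthest apart. At day 7, 1 of 7 compared members was higher in pGF than in SPF (Timp2), where 10.7% of genes were, and 4 were lower (Timp1, Mmp8, Mmp12 and Mmp14), where 6.08% were. The median over the 7 was -1.12 on the log2 scale, against 0.23 over all compared genes. Mmp8 and Mmp12 had 3 and 9 UMIs in pGF day 7 and were compared only through SPF day 7, where they were high. The count of lower members and the median lean on them. At day 0, before DSS, Mmp9 was higher and none was lower among 5 members, where 0.703% and 1.03% of genes were. At day 2, Mmp13 was lower and none was higher among 5 members, where 3.35% and 2.14% of genes were.

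Within the SPF arm, 0 of 5 members passed 2-fold at day 2 against day 0, where 3.43% of genes were higher and 1.48% lower. At day 7 against day 2, Timp1 and Mmp8 were higher and Timp2, Mmp13 and Mmp9 were lower among 7 members, where 5.15% and 16.0% of genes were. At day 7 against day 0, Timp1, Mmp8 and Mmp14 were higher and Timp2 and Mmp13 lower among 7, where 7.25% and 10.3% of genes were. Within the pGF arm, Mmp9 and Mmp13 were lower at day 2 than at day 0 among 5 members, where 1.92% of genes were, and none was higher, where 4.16% were. At day 7 against day 2, Timp1 was higher and Mmp12 lower among 6, where 1.93% and 2.44% of genes were. At day 7 against day 0, Timp1 was higher and Mmp9, Mmp13 and Mmp12 lower among 6, where 3.35% and 2.71% of genes were. Mmp8 and Timp1 had at most 15 UMIs in SPF day 0 and day 2, and entered against them only through SPF day 7. In pGF, Timp1 had 1, 0 and 22 UMIs at day 0, 2 and 7, and Mmp12 had 50, 25 and 9. The 2 genes thus entered the pGF comparisons with day 7 only through the higher library. All these comparisons share libraries with one another and with those of pGF against SPF.

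**Figure D4:**
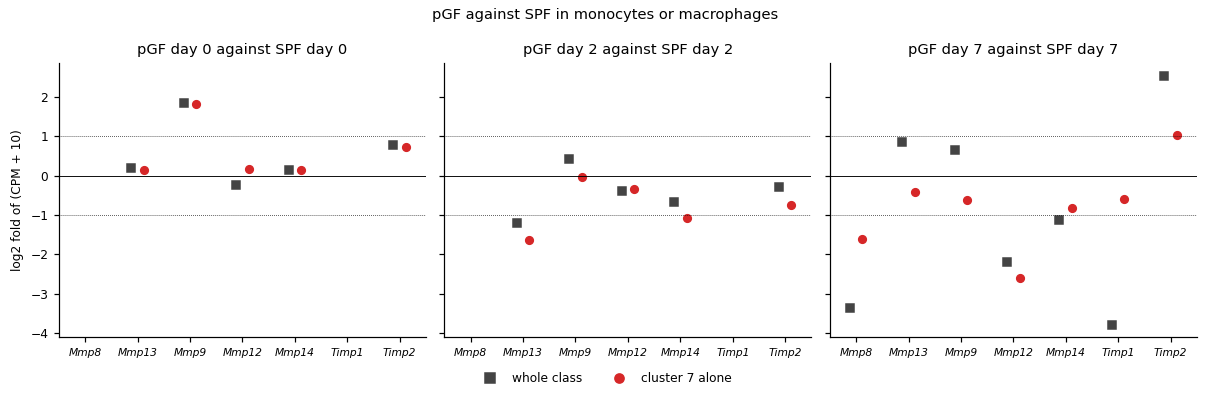
The log2 difference in (CPM + 10) of pGF against SPF in monocytes or macrophages at day 0, 2 and 7, for each compared gene, over the whole class (squares) and within cluster 7 alone (circles), with dotted lines at 2-fold. At day 7 the Timp1 difference goes from -3.79 to -0.59 within cluster 7, while Mmp12 stays past 2-fold (-2.19 and -2.59).

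Mmp13, an interstitial collagenase, was the member with the highest share of UMIs in monocytes or macrophages in 5 of the 6 libraries, among members with at least 20 UMIs, SPF day 7 being the exception. Its level was 420.8 CPM (396.0 to 446.6) in SPF day 0, 474.9 CPM (440.3 to 511.5) in SPF day 2 and 81.4 CPM (75.9 to 87.3) in SPF day 7. In pGF it was 479.2 CPM (442.1 to 518.5), 201.2 CPM (169.7 to 236.9) and 153.3 CPM (128.4 to 181.5) on the same days. In this class of kept cells SPF day 7 was thus the low value of the 6. The pGF day 2 and day 7 values lay between it and the other 3. At day 2 Mmp13 was 2.36-fold lower in pGF than in SPF (1.97 to 2.84). Over all barcodes, by contrast, SPF day 7 had the highest Mmp13 level, at 40.1 CPM, against 26.8 and 25.5 CPM in SPF day 0 and day 2. The pGF libraries stood at 19.5, 3.34 and 6.34 CPM on the same days as above. Kept cells held 876 of the 1879 Mmp13 UMIs of SPF day 7, and mitochondria-rich barcodes of at least 200 genes held 25. The rest lay in barcodes removed as doublets (989 in this library) or with fewer than 200 genes (469). Their cell types were not tested, so the low class value of SPF day 7 holds for kept cells only.

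By cluster, Mmp13 was higher in cluster 7 than in cluster 6. In cluster 7 it was 461.6, 719.0 and 310.5 CPM in SPF and 508.5, 224.2 and 229.8 CPM in pGF, while cluster 6 held 53.3 CPM in SPF day 7 and at most 1 UMI in the other libraries with 20 cells. Since cluster 6 had more cells in SPF day 7, it still held 454 of the 789 Mmp13 UMIs there. The low-depth cluster 22 held 422.6 CPM (27 UMIs) in SPF day 0, 270.2 CPM (43 UMIs) in SPF day 2 and 0 UMIs in SPF day 7 and pGF day 2. C1qa was 2509 to 3812 CPM in cluster 7, 37.4 to 175.5 CPM in cluster 6 and 76.4 to 125.2 CPM in cluster 22. The SPF day 7 class, where the value was low, was mostly cluster 6. Within cluster 7, Mmp13 in SPF day 7 against SPF day 0 was -0.56 on the log2 scale, in place of -2.24 over the class. The day 7 difference of pGF against SPF changed sign, from 0.84 to -0.42, and that of day 2 was larger within the cluster, at -1.64 against -1.20.

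Mmp8 was also read in monocytes or macrophages, though only in SPF day 7 in more than 15 UMIs. It was 127.7 CPM (120.7 to 135.0; 1237 UMIs) there and had 12 and 15 UMIs in SPF day 0 and day 2 and 3, 1 and 3 UMIs in pGF. Of the 1237 UMIs, 1203 lay in cluster 6, at 141.2 CPM. The 16 neutrophil markers in the class summed to 6295 CPM in SPF day 7, against 370.3 to 678.0 CPM in the other libraries, and whether they came from neutrophils was not tested. Mmp8 stood at 29.1 per 1000 UMIs of S100a8 and S100a9 in these cells (27.5 to 30.8), against 5.87 in neutrophils and 8.64 (6.59 to 11.1) in T or NK cells, and there were 1237 Mmp8 UMIs to 155 of Mmp9, against 19316 to 19560 in neutrophils. In the 184 cells without any S100a8 or S100a9 UMI, Mmp8 was 58.0 CPM (42.7 to 76.9), and in the 1590 with one 134.2 CPM (126.7 to 142.0).

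Mmp9 in macrophages was higher in the antibiotic-treated library without DSS. It was 169.3 CPM (147.6 to 193.3) in pGF day 0, against 39.8 CPM (32.5 to 48.3) in SPF day 0, a ratio of 4.25 (3.35 to 5.43). In the other libraries it was 43.6 CPM in SPF day 2, 16.0 in SPF day 7, 61.5 in pGF day 2 and 30.9 in pGF day 7. Only 1 of the 167 pGF day 0 cells had any S100a8 or S100a9 UMI, and the other 166 held 214 of the 218 Mmp9 UMIs, at 167.5 CPM. In SPF day 0 none of the 321 cells had one. The UMIs came from 34 cells in pGF day 0, the richest of which held 21.1%, and from 27 in SPF day 0, all in cluster 7 in both. Within cluster 7 the log2 difference was 1.81, against 1.85 over the class. The value in SPF day 7 was low only over the class, and in cluster 7 it was 74.2 CPM (58.8 to 92.3) there and 70.4 CPM (54.2 to 89.9) in SPF day 2.

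**Figure D5:**
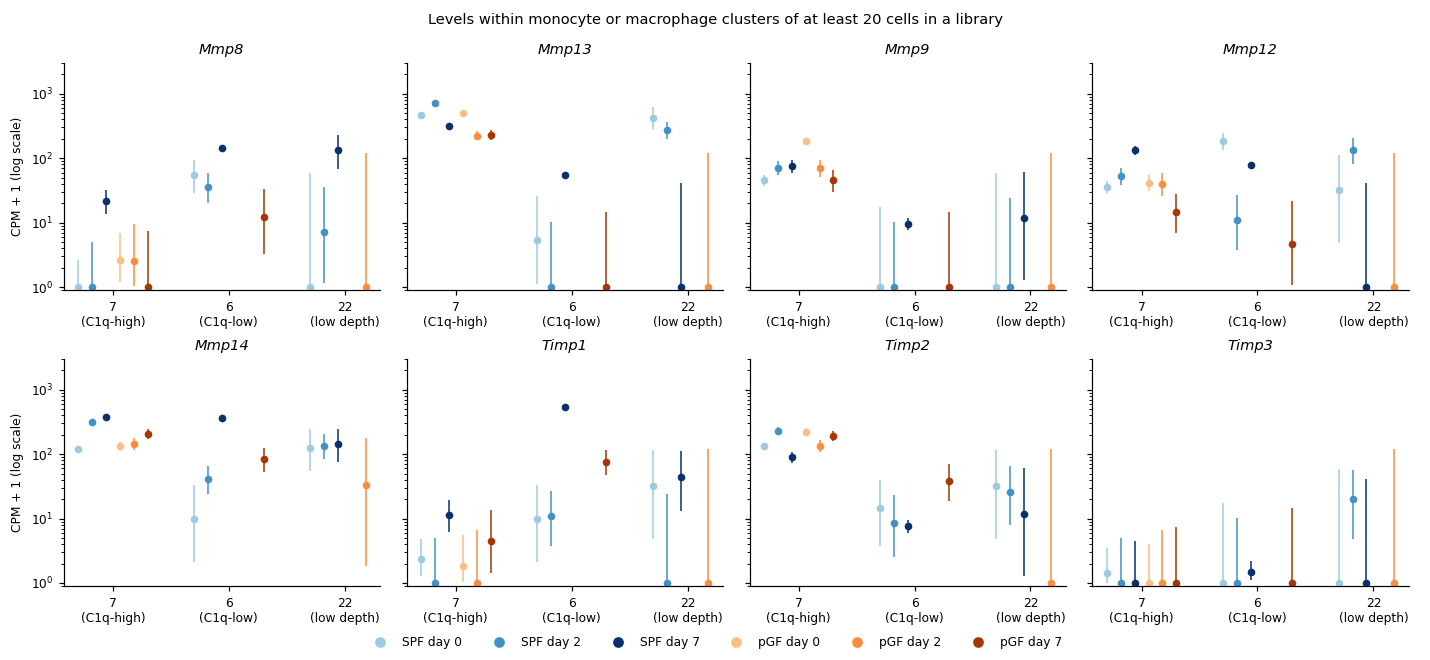
Levels (CPM + 1, log axis) of the 8 genes in the monocyte or macrophage clusters 7, 6 and 22 with at least 20 cells in a library, coloured by library, with exact 95% Poisson intervals. In SPF day 7, Mmp13, Timp2 and Mmp9 are higher in cluster 7 than in cluster 6, and Timp1 and Mmp8 higher in cluster 6, where the SPF day 7 library stands at 539.6 and 141.2 CPM.

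Mmp12, the macrophage elastase, came from few cells. It was 48.0, 49.1 and 82.4 CPM in SPF and 38.8, 34.9 and 10.3 CPM in pGF at day 0, 2 and 7. In SPF day 7, 98 of 1774 cells had a UMI and the richest held 11.7% of them. In pGF, 4 to 7 cells per library had one, and 1 cell held 66.7% to 76.0% of the UMIs. The pGF level at day 7 was 8.0-fold lower than that of SPF (4.19 to 17.6), on 9 against 798 UMIs, and -2.59 on the log2 scale within cluster 7 against -2.19 over the class. Within cluster 7, SPF day 7 stood at 132.6 CPM, against 13.7 to 51.7 CPM in the other 5 libraries. Dendritic cells of SPF day 0 had 134 Mmp12 UMIs (117.7 CPM), of which 1 cell held 62.7%. In SPF day 0 macrophages, 25 of 29 cells with a Mmp12 UMI also had one of Mmp13 (86.2%), against 47.4% of all cells of the class, at a median depth of 8020 UMIs against 6472.

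Mmp14 is the membrane-anchored enzyme that cuts collagen at the cell surface and activates Mmp2. Within monocytes or macrophages it was highest in SPF day 7 among the 6 libraries. It was 109.3 CPM (96.9 to 122.9), 220.1 CPM (196.7 to 245.4) and 366.3 CPM (354.4 to 378.6) in SPF at day 0, 2 and 7, and the 3 intervals did not overlap. In pGF it was 122.7 CPM (104.3 to 143.4), 135.6 CPM (109.9 to 165.4) and 163.6 CPM (137.9 to 192.7), with overlapping neighbours. At day 7 Mmp14 was 2.24-fold lower in pGF than in SPF (1.90 to 2.67), and SPF day 7 was 3.35-fold above SPF day 0 (2.97 to 3.80). Unlike Timp1, Mmp14 stood at like levels in both large clusters of SPF day 7, 371.7 CPM in cluster 7 and 368.0 CPM in cluster 6. Within cluster 7 the difference of pGF against SPF was 0.13, -1.07 and -0.82 at day 0, 2 and 7, so at day 7 it no longer passed 2-fold, and at day 2 it did. With cells of at least 500 detected genes the day 7 value was -0.54. Only 5 of the 1503 cells of cluster 6 stayed in the class there, so this value is not independent of that within cluster 7.

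Timp1, a secreted inhibitor induced by inflammatory signals in many cells, was nearly absent from monocytes or macrophages except in SPF day 7. There it was 475.9 CPM (462.3 to 489.9; 4611 UMIs in 442 cells), while the SPF day 0 and day 2 macrophages had 7 and 4 UMIs and those of pGF had 1, 0 and 22. In pGF day 7, 1 cell held 63.6% of the 22 UMIs. Kept cells held 39 of the 150 Timp1 UMIs of all pGF day 7 barcodes, and 4904 of the 6405 of SPF day 7. Over all barcodes the levels were 6.43 and 136.8 CPM. Within the class, Timp1 was 18.9-fold lower in pGF day 7 than in SPF day 7 (12.5 to 30.2) and 174-fold higher in SPF day 7 than in SPF day 0 (84.5 to 434). The 22 UMIs of pGF day 7 against the 0 of pGF day 2 gave a ratio with a lower limit of 4.48.

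In SPF day 7, 4596 of the 4611 Timp1 UMIs lay in cluster 6. Timp1 stood at 539.6 CPM (524.1 to 555.4) in the 1307 SPF day 7 cells of that cluster and at 74.7 CPM (45.7 to 115.4; 20 UMIs) in the 58 of pGF day 7, against 8.94 and 10.0 CPM in SPF day 0 and day 2. In cluster 7 it was at most 10.2 CPM in any library, and the day 7 difference of pGF against SPF was -0.59 there in place of -3.79. With cells of at least 500 detected genes, 1432 of the 1503 cells of cluster 6 fell in a cluster that the markers did not name, and the difference was -0.41. Timp1 was 468.6 CPM (423.1 to 517.6) in the 184 SPF day 7 cells of the class without S100a8 or S100a9 and 476.6 CPM (462.4 to 491.2) in the 1590 with them. Mmp14 was 345.4 CPM (306.5 to 387.8) and 368.3 CPM (355.7 to 381.1) in the same cells. Of the 442 cells with a Timp1 UMI, 313 also had one of Mmp14 (70.8%), against 51.5% of the class, at median depths of 7492 and 4982 UMIs.

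Timp2 in monocytes or macrophages was low where Timp1 was high. It was 118.7 CPM (105.7 to 132.8), 147.9 CPM (128.8 to 168.9) and 15.8 CPM (13.4 to 18.5) in SPF, and 208.9 CPM (184.7 to 235.4), 120.2 CPM (96.1 to 148.4) and 139.5 CPM (115.9 to 166.6) in pGF. SPF day 7 was the low value of the 6, and pGF day 7 was 8.84-fold above it (6.91 to 11.3). The gene was read mainly in cluster 7, with 89.0 CPM in SPF day 7 and 131.5 to 230.9 CPM in the other libraries, and stood at 6.57 CPM in the SPF day 7 cells of cluster 6. Within cluster 7 the day 7 difference was 1.02 on the log2 scale, against 2.54 over the class, and that of SPF day 7 against SPF day 0 was -0.51, against -2.32. T or NK cells carried Timp2 at 14.4 to 30.9 CPM in the 6 libraries and held 58.1% and 47.6% of its UMIs in pGF day 2 and day 7. Timp3 had at most 4 UMIs in the macrophages of any library.

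Stromal cells carried Mmp14 and all 3 inhibitors, and almost no Mmp8, Mmp9, Mmp12 or Mmp13, whose summed UMIs there never passed 8 for 1 gene in a library. All 9 fibroblast markers reached 50 CPM in each of the 4 libraries. Only SPF day 2 had over 40 of these cells, so the levels are set side by side without comparison. Mmp14 was 358.5, 629.8, 187.7 and 395.2 CPM in SPF day 0, SPF day 2, pGF day 0 and pGF day 7. Timp2 was 952.1, 1019, 602.4 and 1074 CPM in the same order, and Timp1 41.1, 205.9, 37.2 and 59.7 CPM. Timp3, the inhibitor that binds to the matrix itself and also blocks several ADAM proteases, was 693.5, 1252, 256.2 and 544.4 CPM, with 1 cell holding 41.5% of the UMIs in SPF day 0. In SPF day 2, Timp3 was detected in 54.3% and Timp2 in 59.3% of stromal cells thinned to 1000 UMIs, Mmp14 in 48.0% and Timp1 in 10.6%.

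The stromal clusters of SPF day 2 differed in these genes. Timp3 was 1629 CPM (1567 to 1693) in cluster 20, a fibroblast cluster led by Dcn and Mgp, 428.1 CPM (380.3 to 480.2) in cluster 28, led by Dcn, Col3a1 and Sparc, and 915.9 CPM (747.6 to 1111) in cluster 33, which carried the contractile genes Acta2 and Tagln. Timp2 was 1061 and 1031 CPM in clusters 20 and 28 and 355.7 CPM in cluster 33. Mmp14 was 728.3, 423.7 and 489.1 CPM, and Timp1 224.2, 182.4 and 88.9 CPM, in clusters 20, 28 and 33.

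Epithelial cells carried Mmp14 and Timp3 at low levels that stayed within 2-fold in all 6 comparisons made. Mmp14 was 28.2 and 35.3 CPM in SPF day 0 and day 2 and 18.5, 24.9 and 29.7 CPM in pGF, and Timp3 was 11.8 and 18.4 CPM against 18.5, 20.2 and 23.3 CPM. In each comparison 0 of the 2 members passed 2-fold, where 0.320% of all compared genes were higher and 0.80% lower for pGF day 0 against SPF day 0, 0.682% and 0.610% for pGF day 2 against SPF day 2, and 0.801% and 1.14% for SPF day 2 against SPF day 0. The shares were 0.754% and 0.982% for pGF day 2 against pGF day 0, 0.968% and 1.09% for pGF day 7 against pGF day 2, and 1.41% and 1.59% for pGF day 7 against pGF day 0. The fibroblast markers summed to at most 6.63 CPM in these cells. Timp3 was higher in cluster 15, led by Sycn and Muc3, with 27.1, 43.1, 20.5 and 33.0 CPM in SPF day 0, SPF day 2, pGF day 0 and pGF day 2, than in cluster 11, led by Krt8 and Car1, with 7.93, 7.27, 16.7 and 13.7 CPM. The intervals of the 2 clusters overlapped only in pGF day 0. Mmp14 in cluster 23, which carried the goblet cell genes Muc2 and Agr2, was 72.2 CPM (51.8 to 98.0) in SPF day 2 and 35.6 CPM (28.7 to 43.8) in pGF day 2. Timp2 was 1.37 to 4.15 CPM in the 5 libraries with over 40 epithelial cells, and the other 5 members were at most 6 UMIs each there.

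The other genes of the pathway differed in both directions in monocytes or macrophages at day 7. Of the 18 other matrix metalloproteinases listed, of which 17 were in the table, 2 could be compared: Mmp2, a gelatinase that Mmp14 activates, was 34.3 CPM in pGF and 3.72 CPM in SPF (1.69), and Mmp19 was 42.3 and 182.2 CPM (-1.88). Of 12 genes of activation, binding and clearance, 2 of 9 compared were higher in pGF and 4 lower, where 10.7% and 6.08% of all genes were, with a median of -0.57 against 0.23 over all genes. Plau, the urokinase that starts a proteolytic cascade, was among the higher ones (2.11). Lcn2, a lipocalin known to bind Mmp9, was 2.29 CPM in pGF and 1455 CPM in SPF (-6.90), and Furin, which removes the propeptide of Mmp14, was 74.3 and 203.5 CPM (-1.34). Serpinb2, a serine protease inhibitor, was lower as well (-2.25).

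The same shares of all genes, 10.7% higher and 6.08% lower, stand behind the other lists of this comparison. Among 20 matrix substrates, 0 of 3 compared were higher and 2 lower: Vcan at 56.0 against 333.1 CPM (-2.38) and Fn1 at 307.7 against 859.1 CPM (-1.45). Vcan and Fn1 are also among the monocyte markers summed above, so these values are not separate from those sums. Of 16 ADAM and ADAMTS proteases, 1 of 6 was higher (Adam19, 1.96) and 2 lower (Adam8, -1.65; Adam9, -1.06), and of 11 cathepsins 0 of 8 passed 2-fold in either direction. Of 7 granule genes, 0 of 2 compared were higher and 2 lower. In SPF day 7 against SPF day 0, 4 of 9 activation, binding and clearance genes were higher (Lcn2, Serpinb2 and Furin among them, at 7.19, 3.56 and 1.75) and 2 lower, Plau among them (-2.47), where 7.25% and 10.3% of all genes were. This comparison shares the SPF day 7 library with the one before.

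In neutrophils at day 7, the granule genes were lower in pGF as Mmp8 was: 3 of the 7 listed could be compared, and 3 of 3 were lower, where 15.0% of all genes were. Ngp had 64622 UMIs in SPF day 7 and 0 in pGF day 7, Camp had 8581 and 0, and Ltf, lactoferrin, 5680 and 1. These 3 genes were thus compared only through SPF day 7, where they were high, and could only be counted as lower. They are also among the markers used to name neutrophils. Lcn2 was 502.7 CPM in pGF and 9491 CPM in SPF (-4.21). Of the cathepsins 6 of 9 were higher in pGF, led by Ctss, Ctsz and Ctsh (1.46, 1.40 and 1.34), and 2 were lower (Ctsl, -1.92; Ctsc, -1.10), where 18.6% and 15.0% of all genes were. TMM scaling shifted every gene of this comparison by about -0.86, more than Ctss, the furthest of the 6, lay past 2-fold. Of the other matrix metalloproteinases 0 of 2 compared were higher and 1 lower: Mmp19 had 471 UMIs (36.2 CPM) in SPF and 0 in pGF, where 3 UMIs would be 30.8 CPM. The membrane-anchored Mmp25 of neutrophils had 9 UMIs in pGF and 1781 in SPF (92.3 and 136.8 CPM) and stayed within 2-fold. Of the 6 other inhibitors of metalloproteinases listed, only Reck could be compared, with 173 UMIs in SPF day 7 and 0 in pGF day 7, where 3 UMIs would already exceed its SPF level.

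Of the 18 other Mmp and Timp genes in the table, 8 reached 10 CPM and 20 UMIs in some class and library, and those named here were chosen after their values were seen. Mmp2 was the leading one in stroma, at 529.0, 492.5, 307.0 and 477.3 CPM in SPF day 0, SPF day 2, pGF day 0 and pGF day 7. Mmp3, Mmp11 and Mmp16 were read in the SPF day 2 stroma at 141.4, 36.6 and 18.5 CPM, and Mmp15 at 47.9 to 60.9 CPM in the epithelium of the 5 libraries with over 40 such cells.

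Over the 46 sums of a class in a library with at least 40 cells, the genes outside both families whose log2 (CPM + 10) was most like that of each member among 8281 candidates were as follows. Mmp8 was most like Wfdc21, Lcn2 and Fpr1 (Pearson r = 0.98, 0.97 and 0.95), and Mmp9 like Csf3r, Cd300ld and Nfe2 (0.96, 0.94 and 0.93). Mmp13 was most like Pf4, C3ar1 and Stab1 (0.98, 0.98 and 0.97), and Mmp12 like Parvb, Mcub and F13a1 (0.89, 0.88 and 0.88). Mmp14 was most like Cd302, Gab1 and Lrp1 (0.89, 0.88 and 0.88). Among the inhibitors, Timp1 was most like Sphk1, Ptges and Nrg1 (0.91, 0.89 and 0.85), Timp2 like Sec14l1, Tnfsf13b and Ggt5 (0.85, 0.83 and 0.81), and Timp3 like Tshz2, Ptk7 and Ereg (0.99, 0.97 and 0.97). Between members, r was 0.80 for Mmp8 and Mmp9, 0.75 for Mmp12 and Mmp13, and 0.64 for Timp1 and Mmp14. Sums of 1 library share its depth and its free RNA, so these values only describe the pattern.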

How the data were processed

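The deposited files hold whole-number UMI counts per gene and barcode, made by the authors with Cell Ranger 6.1.2 on mm10, per the submitters' processing notes, which also name Seurat 4.1.1 and R 4.1.3. V(D)J libraries were not analysed here. The members and gene lists were chosen with earlier results of these data known.

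Barcodes with at least 200 genes and at most 10% mitochondrial UMIs were kept. Doublets were scored against simulated ones, 2 per cell, and removed at 0.8% per 1000 barcodes (2174 in all). Counts were scaled per cell, and 2000 variable genes, without Mmp and Timp genes, gave 30 principal components, 20 neighbours and Leiden clusters at resolution 1 (Python 3.11.15, numpy 2.4.6, scipy 1.17.1, pandas 2.3.3, scikit-learn 1.9.0, igraph 0.11.9, leidenalg 0.10.2). A cluster was named from marker lists where at least 3 markers were detected and their mean log2 excess was at least 1. UMIs were summed per class and library and divided by the class total, as CPM. Folds are on the (CPM + 10) scale for genes whose higher library reached 10 CPM and 20 UMIs, and 2-fold was the limit counted. TMM factors came from edgeR 4.0.16. Figures were drawn with matplotlib 3.10.9. All 8 members were named. Of each gene list, at most the 3 genes furthest apart in each direction per comparison were, and for each member the 3 genes outside both families most alike over class sums. Only the code for folds and ratio intervals was tested on simulated data. One listed gene is not reported here.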

Additional observations from a re-analysis of the deposited data

Results flagged for a closer look

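Several differences in monocytes or macrophages lay on opposite sides of 0 in comparisons of the same kind, with counting intervals that did not include a ratio of 1. The difference between the differences was not tested, since each library stands alone, and comparisons with a library in common are not independent. All values are log2 of the (CPM + 10) ratio.

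Mmp12 was higher in SPF day 7 than in SPF day 2 (0.65) and lower in pGF day 7 than in pGF day 2 (-1.15). Against day 0 the values were 0.67 in SPF and -1.27 in pGF. In pGF a single cell held 66.7% to 76.0% of the Mmp12 UMIs of each library, against 11.7% to 31.7% in SPF. Within cluster 7 alone, the values against day 0 were 1.66 and -1.10.

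Mmp13 in pGF against SPF was 0.18 at day 0, -1.20 at day 2 and 0.84 at day 7. The day 7 value was -0.42 within cluster 7 and 0.22 under TMM scaling. From day 0 to day 2, Mmp13 was higher in SPF (0.17) and lower in pGF (-1.21). Timp2 over the same days was 0.30 in SPF and -0.75 in pGF. Under TMM scaling the SPF values were -0.14 for Mmp13 and -0.00 for Timp2, and within cluster 7 they were 0.63 and 0.77.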

How the results depend on the processing

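No paired analysis was possible because each group is 1 library. Of 1164 alternative values for the members' folds, 1002 stayed within the counting interval of the reported value, 160 lay outside it, in part with another sign where the fold was within 2-fold, and 2 reversed a fold past 2-fold. Of 456 alternative values for the 29 folds past 2-fold, 31 were no longer past it. The reversed fold is that of Mmp9 in macrophages of SPF day 7 against SPF day 2 (-1.04), which was 0.10 with cells of at least 500 genes and 0.07 within cluster 7. Only 5 of the 1503 cells of cluster 6 stayed in the class with at least 500 genes, so these 2 values are not independent. With no doublets removed this Mmp9 fold was -0.09. TMM scaling shifted all genes by -0.86 (pGF against SPF, day 7) and 0.96 (SPF day 7 against day 2) in neutrophils, and in macrophages by -0.68 and 0.76 in the same comparisons, 0.43 (SPF day 7 against day 0), -0.32 and -0.38 (day 2 against day 0 in SPF and pGF), -0.26 (pGF day 7 against day 0) and 0.12 (pGF day 7 against day 2). Taking 1 cluster per class, and leaving out low-depth clusters, were chosen after seeing the data.

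The number of members past 2-fold changed by over 1.5 times as follows. In neutrophils at day 7 (pGF against SPF) it was 2, and 1 with at least 500 genes, with a pseudocount of 50, without low-depth clusters and within cluster 17. For SPF day 7 against day 2 it was 2, and 4 under TMM scaling. Without the low-count filter it was 2 in place of 0 for pGF against SPF at day 2, and 1 in place of 0 for pGF day 7 against day 2. In macrophages at day 7 it was 5, and 2 with at least 500 genes and 3 within cluster 7. For SPF day 7 against day 2 it was 5, and 2 with at least 500 genes. For SPF day 7 against day 0 it was 5, and 1 with at least 500 genes and 3 within cluster 7. For SPF day 2 against day 0 it was 0, and 1 with at least 500 genes, 20% mitochondrial UMIs, no doublets removed, Mmp and Timp genes kept among the variable genes, a pseudocount of 1, at least 2000 UMIs, low-depth clusters left out or cluster 7 alone. For pGF day 7 against day 2 it was 2, and 0 with at least 500 genes or a pseudocount of 50 and 1 within cluster 7. For pGF against SPF at day 2 it was 1, and 2 with no doublets removed or within cluster 7. With a pseudocount of 50 it was 1 in place of 2 for pGF day 2 against day 0, and 2 in place of 4 for pGF day 7 against day 0. With at least 500 genes, 1432 of the 1503 cells of cluster 6 were in an unnamed cluster and 5 stayed among monocytes or macrophages. The macrophage counts of that setting are thus nearly without cluster 6. The cause of these changes was not tested.

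Without thinning, detection in SPF day 7 neutrophils was 58.1% for Mmp8 and 61.6% for Mmp9, in SPF day 7 macrophages 5.52% for Mmp12, 51.5% for Mmp14 and 24.9% for Timp1, in SPF day 0 macrophages 47.4% for Mmp13, and in SPF day 2 stroma 96.3% for Timp2 and 82.5% for Timp3. With all barcodes of at least 200 genes as the denominator, the class with most UMIs held 80.6% (Mmp8), 85.0% (Mmp9), 71.0% (Mmp12), 68.7% (Mmp14) and 72.0% (Timp1) in SPF day 7, 91.7% (Mmp13) in SPF day 0 and 77.5% (Timp2) and 75.3% (Timp3) in SPF day 2. Depth limits the neutrophils of the 3 libraries other than SPF day 7, where 3 UMIs are 30.8 to 40.8 CPM.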
